A study of Mus musculus with 9 samples.

Results

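Levels of 5 secreted signals, the chemokines Cxcl1, Cxcl2, Cxcl5 and Ccl2 and the myeloid growth factor Csf2, were followed through normoxia and deprivation in mouse brain microvascular endothelial cells. They were taken by gene symbol, and all 5 were among the 675 genes of the deposited expression table. The cells, labelled MBMECs, a wild-type endothelial cell line, were kept for 1, 3 or 6 h in one of 3 states. These were normoxia, deprivation of oxygen, glucose and fetal bovine serum together (oxygen-glucose deprivation, OGD), and the same deprivation with 3 µM obacunone, a limonoid of citrus fruit (OGD+Oba). Each of the 9 groups was 1 RNA-seq library, so normoxia at each time was a lone library, while OGD and OGD+Oba gave 2 deprived libraries per time.

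Chemokines are small secreted proteins that bind to vessel walls and guide leukocytes out of the blood. Cxcl1, Cxcl2 and Cxcl5 carry the ELR motif before their CXC cysteines and in mice draw neutrophils through the receptor Cxcr2. Ccl2 draws monocytes through Ccr2, and Csf2 (GM-CSF) sustains granulocytes and macrophages. Endothelial cells make all of these signals when NF-kB and AP-1 are active, their mRNAs are short-lived, and brain endothelium is a known source of them in ischemia.

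The genes for the neutrophil chemokines lie together. In GRCm38.p6, Cxcl5 (NCBI gene 20311) spans 90759298 to 90761625 on chromosome 5, Cxcl1 (gene 14825) 90891245 to 90893121 and Cxcl2 (gene 20310) 90903899 to 90905938. The stretch from Cxcl5 to Cxcl2 is 147 kb long, and 10.8 kb separate Cxcl1 from Cxcl2. Of the other coding genes inside that stretch, Ppbp was listed in the table, and Pf4, Cxcl3 and Cxcl15 were not analysed here. Ccl2 (gene 20296) and Csf2 (gene 12981) are on chromosome 11, at 82035577 to 82037452 and 54247270 to 54249899.

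Promoter windows of Cxcl1, Cxcl2 and Csf2 were found in the RefSeq table of GRCm38.p6. The 150 bases before the start sites of Cxcl1 (chr5:90891095-90891244, plus strand) and Cxcl2 (chr5:90903749-90903898, plus strand) are shown because their levels moved most alike. Capitals mark the letters that match a kappa B motif, the element bound by NF-kB, on either strand.
Cxcl1 promoter: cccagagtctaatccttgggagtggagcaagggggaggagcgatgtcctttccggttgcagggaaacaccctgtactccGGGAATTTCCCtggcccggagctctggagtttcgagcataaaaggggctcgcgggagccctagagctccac
Cxcl2 promoter: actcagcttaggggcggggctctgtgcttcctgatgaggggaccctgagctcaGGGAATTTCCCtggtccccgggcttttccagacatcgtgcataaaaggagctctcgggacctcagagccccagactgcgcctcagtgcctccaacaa
Both hold the letters GGGAATTTCC on the gene's strand, from 71 bases before the start of Cxcl1 and 97 bases before that of Cxcl2. These letters were taken from the kappa B match in the Cxcl1 window, so the hit of Cxcl1 was fixed in advance. On both strands, they occur in 29 of 32841 promoter windows of 300 bases (0.0883%). Among windows of listed genes, 3 of 689 (0.435%) hold them, those of Cxcl1, Cxcl2 and Nfkbia. Cxcl2 is a close relative of Cxcl1, and their 300-base windows also share a run of 20 bases elsewhere. The share over all windows therefore does not measure how unusual the match in Cxcl2 is. The looser kappa B motif occurs in 8.46% of all windows and 11.6% of those of listed genes, its matches including GGGAATTTCC. The AP-1 motif TGANTCA (7.81% of all windows) and the CRE motif TGACGTCA (1.79%) were found in none of the 3 windows, and that of Csf2 held no kappa B match. A match is a string of letters and was not tested as a bound site.

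AU-rich elements, which mark mRNAs for rapid decay by proteins such as Zfp36, differ between the 5 genes. The 9-letter core TTATTTATT, searched on the mRNA strand of the GENCODE M21 transcript with the longest coding sequence (GRCm38), occurs 4 times in the 3' UTR of Csf2, 4 times in Cxcl2 and 2 times in Cxcl1, counting overlaps. It occurs 0 times in Cxcl5 and Ccl2. The shorter string ATTTA occurs 11 times in Cxcl2, 9 in Csf2, 7 in Cxcl1, 5 in Cxcl5 and 1 time in Ccl2. At least 3 copies of ATTTA occur in 41.6% of tested genes and 32.2% of coding genes with a 3' UTR. The densest 30-base stretch of each of the 3 genes is shown with the core in capitals, at chr11:54247327-54247356 (minus strand) for Csf2, chr5:90892604-90892633 (plus strand) for Cxcl1 and chr5:90905325-90905354 (plus strand) for Cxcl2.
Csf2 site: tttaaatatTTATTTATTTATTTATTTATT
Cxcl1 site: gggtcctatttatttatgtatTTATTTATT
Cxcl2 site: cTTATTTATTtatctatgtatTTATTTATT
Among the 548 tested genes with a 3' UTR in that annotation 10.8% hold the core, and among 20643 coding genes 6.91%.

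Levels are in FPKM, fragments scaled to transcript length and library depth, as the authors deposited them. The authors' deposited table also gives log2 ratios between libraries, and 94.8% of these 4036 ratios were fractions of whole numbers to within 1e-11. They were read as ratios of read counts, which gave the smallest whole numbers of reads behind each value of the 5 genes. Relative depths ran from 0.918 to 1.057, and total depth is unknown. Corrected for them, a read was worth 0.109 to 0.111 FPKM of Cxcl1, 0.141 to 0.145 of Ccl2 and 0.0973 to 0.102 of Csf2 over the 9 libraries. Agreement between times was imposed when the reads were recovered and is no check on them. Poisson intervals (exact, 95%) on these reads cover counting error only. By the authors' ratio, all 675 listed genes differed by 2-fold or more between the OGD and normoxia libraries of 6 h, the pair on which the table was selected. Values at 6 h against normoxia are therefore given with no test. Of 15 endothelial markers only Slc2a1, at 71.23 to 577.15 FPKM, and Flt1 were listed. Flt1, a receptor for endothelial growth factor, was at 0.05 to 0.68 FPKM in all 9 libraries. Because the table was selected on change at 6 h, a marker missing from it may still be expressed in the cells. Of 9 epithelial markers only Cldn4, a claudin, was listed, at 60.9 to 308 FPKM. Markers of myeloid cells, neutrophils, astrocytes, pericytes and fibroblasts were not analysed here, and the part of other cells in the values was not tested.

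Cxcl1, with the highest mean of the 5 (39.1 FPKM), was high in a single normoxia library and climbed through deprivation. In normoxia its level was 91.85 FPKM at 1 h (780 reads, interval 726 to 837), 13.78 at 3 h and 14.86 at 6 h. Under OGD its levels at the 3 times were 10.7, 38.54 and 70.08 FPKM, and with obacunone at 9.44, 27.71 and 74.88. The 1 h normoxia library was the highest of all 9, and both deprived libraries at 6 h came next. At 1 h the deprived libraries lay below every normoxia library, and at 3 h and 6 h above the normoxia libraries of 3 h and 6 h but below that of 1 h.

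Cxcl2, its close relative and neighbour, had the same shape at a lower level. It stood at 23.48, 2.28 and 3.36 FPKM in normoxia, at 3.21, 17.24 and 30.78 under OGD, and at 3.01, 12.52 and 32.6 with obacunone, at 1, 3 and 6 h. Its lowest value, normoxia at 3 h, rested on 25 reads (interval 16.2 to 36.9). Unlike Cxcl1, its 6 h deprived libraries stood above all 3 normoxia libraries. The ratio of Cxcl1 to Cxcl2 in FPKM was 3.91, 6.04 and 4.42 in normoxia and 3.33, 2.24 and 2.28 under OGD, with 3.14, 2.21 and 2.3 in OGD+Oba. Of the 31-base words of Cxcl2, 7.59% also occur in Cxcl3, so reads from that part can come from either gene; Cxcl1 shares none with other genes.

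Cxcl5, the third ELR chemokine, varied least, by 2.45-fold from the lowest library to the highest. It was at 4.29, 2.29 and 2.36 FPKM in normoxia, 3.57, 2.95 and 5.62 under OGD, and 2.97, 2.68 and 4.67 with obacunone. Its deprived libraries of 1 h and 3 h fell between the lowest and the highest normoxia value, and those of 6 h exceeded all 3. Its libraries at 1 h and 3 h held 44 to 76 reads, and the counting intervals of OGD and normoxia overlapped at each of these times.

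Ccl2, the monocyte chemokine, followed another course. In normoxia it was at 20.98 FPKM at 1 h, 48.79 at 3 h (342 reads) and 12.05 at 6 h (83 reads), with its peak where Cxcl1 and Cxcl2 were low. Under OGD it was at 11.9, 19.58 and 23.9 FPKM, and with obacunone at 7.17, 18.61 and 15.16. All 6 deprived libraries lay below normoxia at 3 h, and those of 1 h below all 3 normoxia libraries. The ratio of Ccl2 to Cxcl1 in FPKM ran from 0.202 in OGD+Oba at 6 h to 3.54 in normoxia at 3 h.

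Csf2 was scarce and gave the widest span, 22.9-fold. It stood at 1.42, 0.49 and 0.5 FPKM in normoxia, on 13, 5 and 5 reads. Under OGD it was at 0.75, 1.96 and 4.57 FPKM on 7, 21 and 48 reads, and with obacunone at 0.2, 1.7 and 4.26 on 2, 18 and 44 reads. At 3 h and 6 h all 4 deprived libraries exceeded every normoxia library. The interval of 2 reads is 0.242 to 7.22, so the 1 h values carry little information on differences. Other genes share 9.22% of its words of 31 bases.

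**Figure D1:**
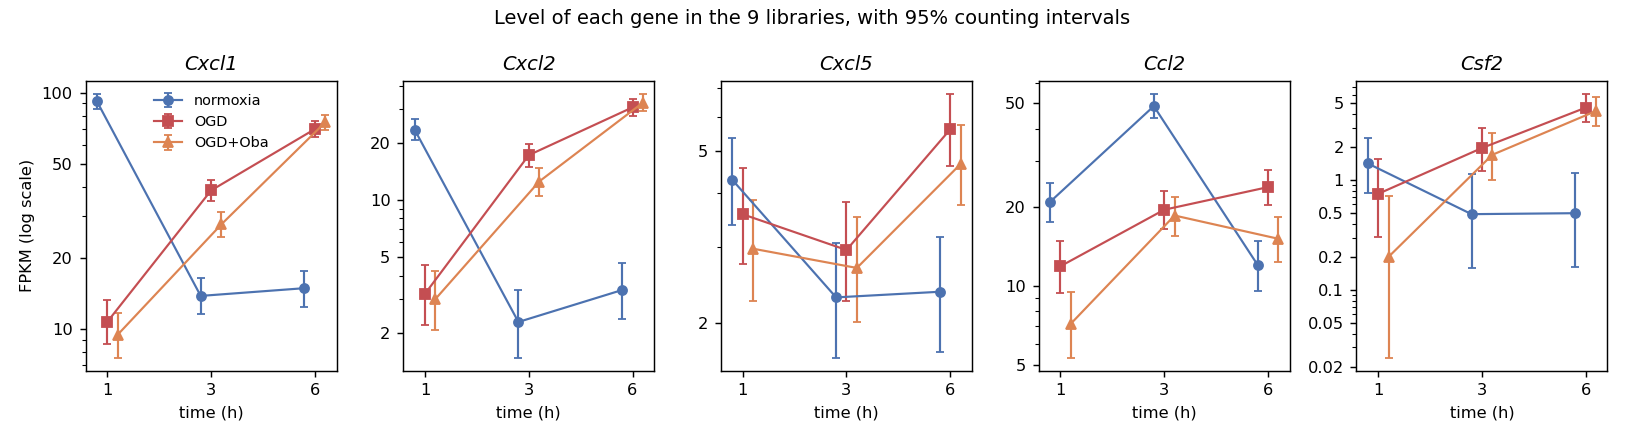
FPKM on a log axis against time in h for the 5 genes, with 1 point per library for normoxia (circles), OGD (squares) and OGD+Oba (triangles); bars are exact 95% Poisson intervals of the recovered reads, for counting error only. Cxcl1 and Cxcl2 start at 91.85 and 23.48 FPKM in normoxia and fall to 13.78 and 2.28 at 3 h while the deprived libraries climb, and Ccl2 peaks in normoxia at 3 h, at 48.79.

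Deprivation against normoxia was tested with the OGD and OGD+Oba libraries of a time as a pair, in limma on log2(FPKM + 1) over the 580 genes whose mean reached 1 FPKM, a floor that all 5 genes passed. Values are log2 differences of the pair's mean from the lone normoxia library ± SE, on 2 residual and 5.48 prior degrees of freedom. The normoxia library is assumed to vary like the pairs, and a fault in it cannot be told apart from an effect. In bulk RNA, fewer cells expressing a gene and less RNA per cell cannot be told apart either.

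At 1 h the chemokines that passed the test fell. Cxcl1 fell by 3.07 ± 0.17 on the log2 scale (limma, adjusted p = 5.90e-05), 8.4-fold on that scale. Cxcl2 fell by 2.58 ± 0.20 (adjusted p = 0.000165), and these ranked 3 and 4 from the lowest of 580 genes. Ccl2 fell by 1.10 ± 0.20 (adjusted p = 0.0207), a call lost with median-ratio scaling (adjusted p = 0.0769), without the trend (0.0878) and with voom on the recovered reads (0.110). Csf2 (-0.74 ± 0.24, adjusted p = 0.227) and Cxcl5 (-0.31 ± 0.20, 0.790) missed the threshold. So 3 of the 5 were called lower, against 4.14% of all tested genes called lower and 0% called higher (56 genes had an unadjusted p under 0.05 in either direction). Other settings called some genes higher: 3 with a pseudocount of 0.1, 5 without 3 h, 5 without 6 h and 1 with voom. Between the OGD and normoxia libraries alone, Cxcl1 and Cxcl2 were at least 2-fold apart, as were 3.79% of tested genes. With median-ratio scaling 2 of the 5 and 10 of all genes were called.

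At 3 h the directions parted. Cxcl2 rose by 2.26 ± 0.20 on the log2 scale (limma, adjusted p = 6.41e-05) and Cxcl1 by 1.19 ± 0.17 (adjusted p = 0.000874). Csf2 rose by 0.92 ± 0.24 (adjusted p = 0.0121), where the pseudocount shrinks a 4-fold ratio of FPKM between OGD and normoxia to 0.99 on the log2 scale. Ccl2 fell by 1.31 ± 0.20 (adjusted p = 0.00117), 20 from the lowest of 580, and Cxcl5 differed by 0.21 ± 0.20 (adjusted p = 0.365, 95% interval -0.24 to 0.67). The background was high at this time: 32.8% of tested genes were called higher and 28.6% lower, and 3 of the 5 genes were called higher and 1 lower. Between the OGD and normoxia libraries alone, Cxcl1, Cxcl2 and Ccl2 were at least 2-fold apart, as were 23.3% of tested genes.

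**Figure D2:**
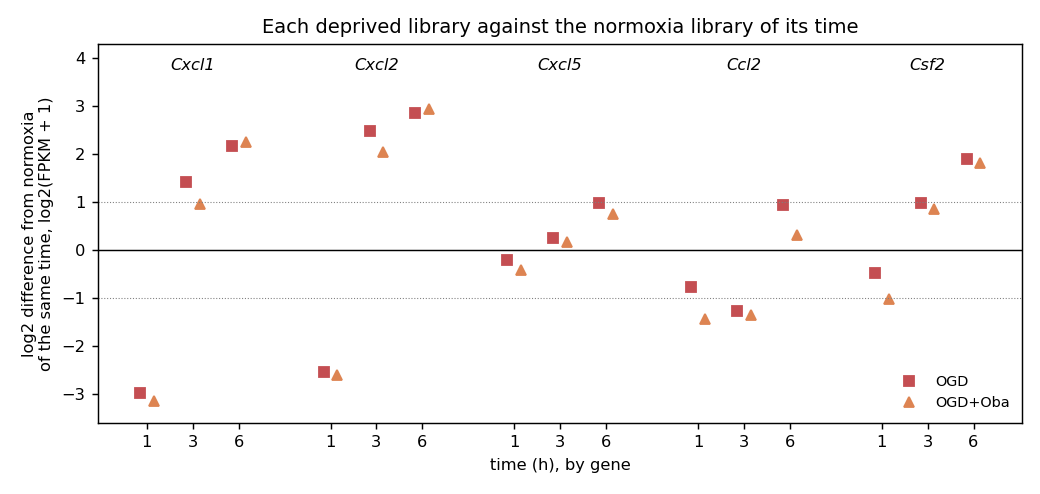
Log2 difference on log2(FPKM + 1) of each deprived library, OGD (squares) or OGD+Oba (triangles), from the normoxia library of the same time, by gene and time in h; dotted lines mark 2-fold. Cxcl1 and Cxcl2 pass from about -3.0 and -2.5 at 1 h to above 2 at 6 h, and Ccl2 is below 0 at 1 h and 3 h.

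At 6 h, the time on which the genes were chosen, all 5 stood higher in OGD than in normoxia. In FPKM the ratio of OGD to normoxia was 9.16 for Cxcl2, 9.14 for Csf2, 4.72 for Cxcl1, 2.38 for Cxcl5 and 1.98 for Ccl2. On the log2(FPKM + 1) scale, 3 of the 5 were at least 2-fold higher in OGD, where 38.6% of tested genes were. The OGD+Oba library, which took no part in the choice of the genes, was at 15.16 FPKM for Ccl2 against 12.05 in normoxia. That normoxia library did take part, so this comparison is not free of the choice either.

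Whether the effect of deprivation differed between 1 h and 3 h was tested in the same fit. The effect at 3 h exceeded that at 1 h by 4.83 ± 0.28 on the log2 scale for Cxcl2 (limma, adjusted p = 1.79e-05) and by 4.26 ± 0.24 for Cxcl1 (adjusted p = 1.79e-05). They ranked 2 and 4 from the highest of 580 genes. For Csf2 the difference was 1.66 ± 0.33 (adjusted p = 0.00669). Neither Cxcl5 (0.53 ± 0.28, adjusted p = 0.164) nor Ccl2 (-0.21 ± 0.28, 0.557) passed, and the 95% interval for Ccl2 was -0.87 to 0.45. In all, 26.4% of tested genes were called higher in this difference and 10.7% lower. The split was 153 to 62, and 132 to 95 with median-ratio scaling.

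The normoxia libraries themselves differed between times, and their change from 1 h to 3 h is part of the difference just given. Between the normoxia libraries at 3 h and 1 h, with no test, Cxcl2 differed by -2.90 on the log2 scale, Cxcl1 by -2.65, Csf2 by -0.70 and Cxcl5 by -0.69, and Ccl2 by 1.18. Only 5.34% of tested genes were at least 2-fold lower and 2.76% at least 2-fold higher in that pair. From 3 h to 6 h in normoxia Cxcl1 moved by 0.10 and Cxcl2 by 0.41, whereas Ccl2 moved by -1.93, among the 2.24% of genes at least 2-fold lower. Time in culture, handling and the single library cannot be told apart in these differences.

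**Figure D3:**
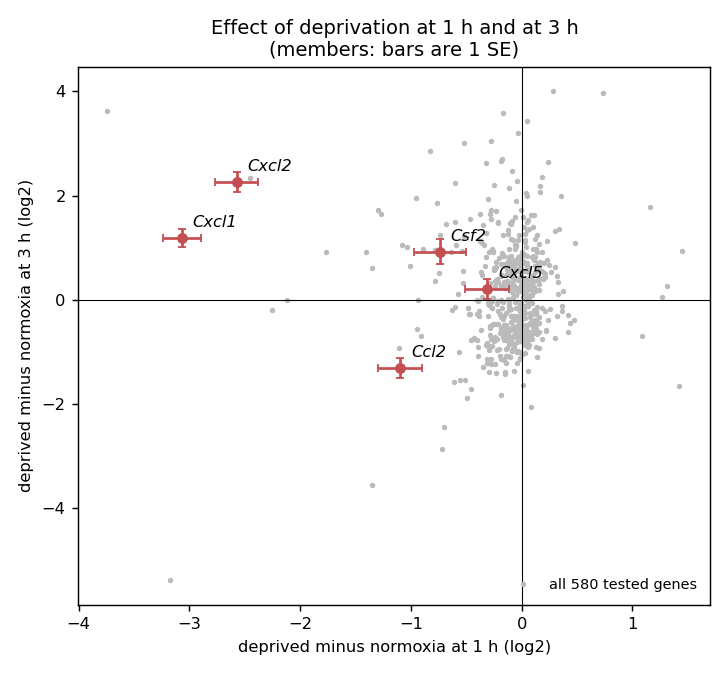
Log2 difference of deprived from normoxia libraries at 1 h (horizontal) and at 3 h (vertical) for the 580 tested genes (grey) and the 5 genes (red, bars of 1 SE). Cxcl1 and Cxcl2 lie far to the left and above 0, Cxcl1 with -3.07 and 1.19, Cxcl2 with -2.58 and 2.26, Ccl2 is below 0 at both times, and Cxcl5 is the nearest of the 5 to 0 at both times.

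The course within deprivation uses no normoxia library. From 1 h to 3 h, over 2 deprived libraries each, Cxcl2 rose by 1.93 ± 0.16 on the log2 scale (limma, adjusted p = 5.25e-05), Cxcl1 by 1.61 ± 0.14 (6.58e-05), Ccl2 by 0.97 ± 0.16 (0.00230) and Csf2 by 0.96 ± 0.19 (0.00515). Thus Ccl2 rose among deprived libraries while it was lower than in normoxia at 3 h. Cxcl5 missed the threshold, at -0.16 ± 0.16 (adjusted p = 0.428). The 4 calls stand against 29.5% of all tested genes called higher and 17.8% lower.

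From 3 h to 6 h the 3 neutrophil chemokines and Csf2 rose in the deprived libraries. Cxcl1 rose by 1.12 ± 0.14 on the log2 scale (limma, adjusted p = 0.00210), Cxcl2 by 1.06 ± 0.16 (0.00394), Csf2 by 0.94 ± 0.19 (0.0116) and Cxcl5 by 0.68 ± 0.16 (0.0168). Ccl2 differed by 0.00 ± 0.16 (adjusted p = 0.990, 95% interval -0.38 to 0.38), and by 0.03 with voom. Among all tested genes 25.7% were called higher and 7.76% lower, a split of 149 to 45 that became 67 to 65 with median-ratio scaling, which moved the median of all genes from 0.14 to -0.01. The 6 h OGD library is 1 of the pair that chose the table, and with a pseudocount of 0.1 the call of Csf2 was lost (adjusted p = 0.0691).

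Obacunone within deprivation was asked as 1 effect common to the 3 times, each with 1 OGD and 1 OGD+Oba library. None of the 5 genes passed (limma; 1 of them, Ccl2, at an unadjusted p under 0.05, and 0 with voom), and 0.172% of tested genes did. Ccl2 came nearest, with -0.45 ± 0.13 on the log2 scale (unadjusted p = 0.0104, adjusted p = 0.474), 7 from the lowest of 580. Its reads at 1, 3 and 6 h were 76, 144 and 173 in OGD and 50, 135 and 107 in OGD+Oba, lower with obacunone at 3 of 3 times. Without the 3 h libraries it was called, at -0.64 (adjusted p = 0.0127), and over 12 alternatives the adjusted p ran from 0.0127 to 1. Effects of the others were Csf2 -0.25 (95% interval -0.62 to 0.12), Cxcl1 -0.18 (-0.44 to 0.09), Cxcl5 -0.18 (-0.48 to 0.13) and Cxcl2 -0.14 (-0.45 to 0.16). These intervals hold 0 and do not show that the drug had no effect.

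At single times the obacunone differences of Cxcl1 and Cxcl2 went together. At 3 h they were -0.46 and -0.43 on the log2 scale, below the 5% point of all tested genes (-0.23), and at 6 h 0.09 and 0.08. At 3 h OGD and OGD+Oba held 369 and 262 reads of Cxcl1 and 198 and 142 of Cxcl2. At 1 h they were -0.16 and -0.07, above the 5% point of -0.63. For Ccl2 the differences at 1 h and 6 h, -0.66 and -0.62, lay below the 5% points of -0.63 and -0.28, at 1 h only just. The 3 h difference of Ccl2, -0.07, lay above the 5% point of that time. Each is a difference of 1 library from 1 library and has no replicate check.

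**Figure D4:**
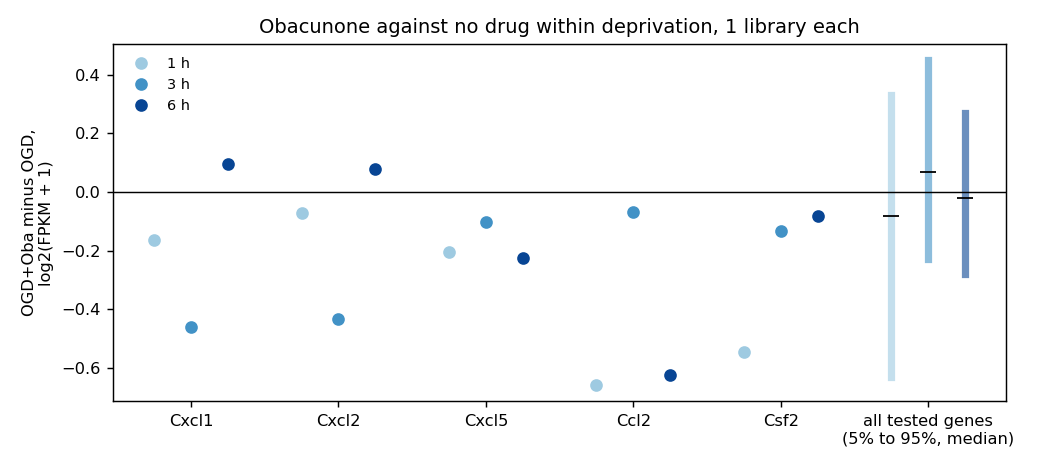
Log2 difference on log2(FPKM + 1) of the OGD+Oba library from the OGD library for each gene at 1, 3 and 6 h (points, light to dark), beside the 5% to 95% range (bars) and median (ticks) of all 580 tested genes at each time. Ccl2, Cxcl5 and Csf2 lie below 0 at all 3 times, and Cxcl1 and Cxcl2 are lowest at 3 h, at -0.46 and -0.43.

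The 5 genes were compared with each other over the 9 libraries by Pearson's r of log2(FPKM + 1), a description in which all points share the libraries. Cxcl1 and Cxcl2 had r = 0.96, Cxcl2 and Csf2 0.92, and Cxcl1 and Csf2 0.85. Cxcl5 had r of 0.73 to 0.77 with these 3. Ccl2 had r from -0.03, with Cxcl5, to 0.31, with Cxcl1.

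Other genes with the most similar course were named by the same measure over 9 libraries. For Cxcl1 they were the phosphatase Dusp1 (r = 0.97), the immediate early factor Egr1 (0.94) and the phosphatase Dusp5 (0.91), and for Cxcl2 Egr1 (0.99), Dusp1 (0.96) and Ier5l (0.95). Csf2 was closest to the TGF-beta-inducible factor Klf10 (0.98), Elmsan1 (0.97) and Foxj3 (0.97), and 91 of 575 genes other than the 5 (15.8%) reached r = 0.9 with it. Of these 575, 3 did so with Cxcl1, 14 with Cxcl2 and 2 with Cxcl5, the glycolytic enzyme Eno2 (0.91) and the repressor Bcl6 (0.90), before the NF-kB regulator Nfkbiz (0.90 when rounded). For Ccl2 0 of 575 did, its nearest being the interferon-inducible chemokine Cxcl10 (0.70), then Hivep2 (0.66) and the clock repressor Cry2 (0.56). Of the genes named, Eno2 stood at only 0.49 to 2.18 FPKM and Cxcl10 at 0.27 to 5.31, low levels at which counting error weighs more.

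Genes that act beside the 5 came from 7 lists, 4 of leukocyte recruitment and 3 of transcription and mRNA decay. Of 77 recruitment genes (other chemokines, receptors, other cytokines and adhesion molecules) only 3 were in the table, Cxcl10, Ppbp and Icam1, with no receptor of the 5 signals and no other cytokine. At 1 h 0 of these 3 passed the test (limma; 1, Cxcl10, at an unadjusted p under 0.05), and at 3 h all 3 fell, where 28.6% of tested genes did. Of 58 regulators (NF-kB, AP-1, ATF and EGR factors, and AU-rich decay) 13 were in the table and 12 were tested. At 1 h 8 of the 12 fell and 0 rose, against 4.14% of tested genes called lower, with a median of -1.29 on the log2 scale against -0.05. At 3 h 9 rose and 0 fell, against 32.8% and 28.6% of tested genes, with a median of 1.04 against 0.05. The effect at 3 h exceeded that at 1 h for 11 of the 12, against 26.4%, with a median of 2.12 against 0.15. These counts all rest on the lone normoxia libraries of 1 h and 3 h. Among deprived libraries alone, from 1 h to 3 h, 6 of the 12 rose and 1 fell. This stands against 29.5% and 17.8% of tested genes, with a median of 0.61 against 0.04.

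Among other chemokines, of 34 in the list, Cxcl10 and Ppbp were tested. Cxcl10, which draws T cells, was like Ccl2 at 4 FPKM in normoxia at 3 h against 2.02 at 1 h and 0.27 at 6 h. It stood at 0.59, 2.21 and 4.88 FPKM under OGD, and fell at 3 h by 0.56 ± 0.21 on the log2 scale (limma, adjusted p = 0.0483). Ppbp, a platelet chemokine from the same cluster as Cxcl1, stood at 16.8, 20.58 and 26.49 FPKM in normoxia and 17.05, 15.07 and 12.04 under OGD. It fell at 3 h by 0.45 ± 0.15 (adjusted p = 0.0349), so within the cluster Cxcl1 and Cxcl2 rose and Ppbp fell at that time.

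Of 28 NF-kB subunits and regulators, 3 were tested, of which 2 fell at 1 h and all 3 rose at 3 h. Nfkbia, the inhibitor whose promoter window shares the 10 letters of Cxcl1 and Cxcl2, stood 1.04 ± 0.13 (log2) below normoxia at 1 h (limma, adjusted p = 0.00255) and 1.02 ± 0.13 above it at 3 h (0.000449). Tnfaip3, a deubiquitinase that ends NF-kB signalling, fell by 1.41 ± 0.19 (0.00357) and rose by 0.91 ± 0.19 (0.00470). Nfkbiz, an atypical inhibitor, missed the threshold at 1 h, with -1.08 ± 0.26 (0.0697), and passed it at 3 h, with 1.05 ± 0.26 (0.0101). Between the lone normoxia libraries of 1 h and 3 h, Nfkbia went from 42.9 to 18.19 FPKM, Tnfaip3 from 9.03 to 5.73 and Nfkbiz from 14.19 to 4.02. Among deprived libraries from 1 h to 3 h, Nfkbia rose by 0.86 ± 0.10 (limma, adjusted p = 0.000381) and Tnfaip3 by 1.74 ± 0.15 (6.58e-05). Nfkbiz missed the threshold there, with 0.53 ± 0.21 (0.0717). The adhesion molecule Icam1, to which leukocytes bind after chemokine arrest, took another way: it was at 7.8, 10.68 and 13.6 FPKM in normoxia and 7.75, 6.99 and 5.92 under OGD, and fell by 0.62 ± 0.18 at 3 h (0.0194).

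Zfp36, which binds AU-rich elements and promotes decay of mRNAs such as Csf2, was the 1 gene of 12 tested in its list. It was at 108.69 FPKM in normoxia at 1 h and at 23.73 to 62.32 FPKM in the other 8 libraries. After 1 h it fell by 2.12 ± 0.14 on the log2 scale (limma, adjusted p = 6.19e-05) and at 3 h differed by -0.01 ± 0.14 (adjusted p = 0.964). From 3 h to 6 h of deprivation Zfp36 rose by 1.07 ± 0.11 (0.00128), as did Cxcl1 and Cxcl2.

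Of the 18 AP-1, ATF and EGR factors, 8 were tested, of which 5 fell at 1 h and 6 rose at 3 h. The 4 most abundant, Egr1, Junb, Atf3 and Fos, did both. The effect at 3 h exceeded that at 1 h by 7.37 ± 0.20 on the log2 scale for Egr1 (limma, adjusted p = 6.30e-07), 4.79 ± 0.39 for Fos (5.81e-05), 3.03 ± 0.19 for Atf3 (2.33e-05) and 2.92 ± 0.17 for Junb (1.79e-05). The differences of Cxcl1 and Cxcl2, at 4.26 and 4.83, lay among these. The change between the lone normoxia libraries is part of each. From 1 h to 3 h in normoxia, Egr1 went from 179.16 to 5.65 FPKM and Fos from 105.5 to 3.89. Atf3 went from 224.47 to 31.86 FPKM and Junb from 130.45 to 52.41. Within deprivation from 1 h to 3 h, Egr1 and Junb rose by 2.61 and 1.62, while Fos (0.35 ± 0.22, adjusted p = 0.226) and Atf3 (0.25 ± 0.11, 0.102) missed the threshold.

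**Figure D5:**
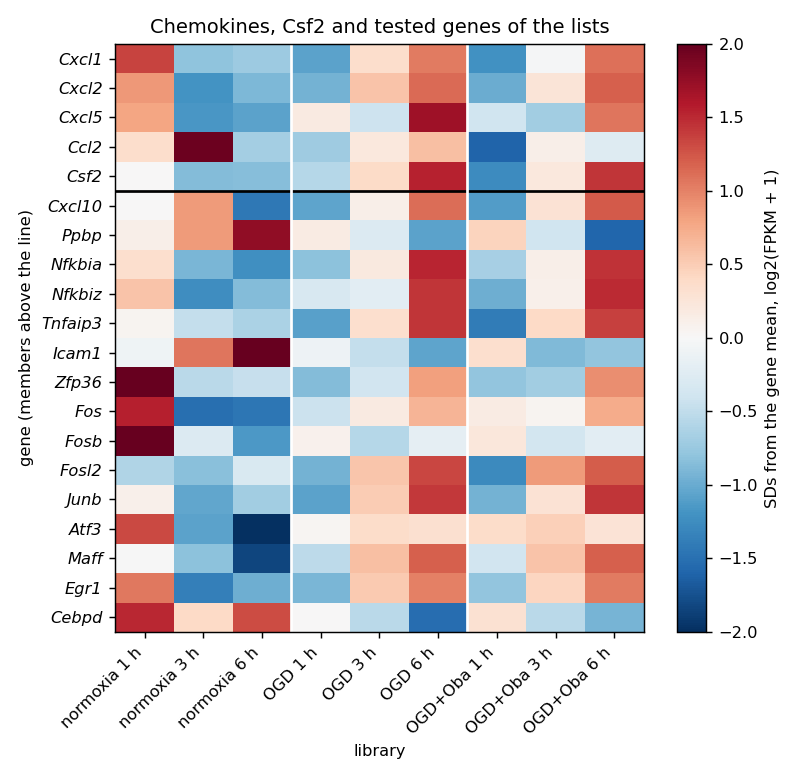
Colour gives the SDs of log2(FPKM + 1) from each gene's mean over the 9 libraries (columns), for the 5 genes above the black line and the 15 tested genes of the lists below it. Cxcl1, Cxcl2, Zfp36, Fos and Egr1 are high in normoxia at 1 h, Ccl2 is highest in normoxia at 3 h, and Cxcl10 is high there and in both deprived libraries at 6 h.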

How the data were processed

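RNA-seq libraries of 9 groups, 1 per group, were analysed. The authors deposited FPKM values with 2 decimals for 675 genes, and log2 ratios for 6 pairs of libraries, per the file headers. HISAT2 2.0.4 and GRCm38 are named in the submitters' processing notes; the counter is not given in the sources used here. The listed genes sum to 14198 to 22631 FPKM per library, which are not depths.

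Reads were recovered from the authors' deposited log2 ratios as fractions with denominators up to 20000, and brought to 1 scale between times by multipliers up to 40 that make FPKM per read, corrected for relative depth, agree within 0.04 (natural log, plus rounding), for 568 genes. They may share a common factor. The deposited ratios are those of the reads without scaling for depth. Models were fitted to log2(FPKM + 1) with limma (3.58.1; R 4.3.3) and its trend option, a scale that understates changes of low genes. The model had a level for normoxia and for deprived libraries at each time and 1 obacunone term. Benjamini-Hochberg adjustment ran over 580 genes, with a threshold of 0.05. The p-values rest on how the difference between the OGD and OGD+Oba libraries varied over the 3 times, moderated over the tested genes. No spread between libraries of the same group was measured, and none in normoxia. The script was tested on simulated data. Alternatives were a pseudocount of 0.1, floors of 0 and 5 FPKM, 2 other scalings, limma without trend or robust, leaving out each time, an additive model and, chosen after seeing the data, voom on the reads of 490 genes. Genes, lists and tests were chosen with earlier results of these data known. Beside the 5 genes, up to 4 tested genes of each list with the highest mean FPKM were named, and the 3 most alike genes, passing over predicted ones. No proteins were used here.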

Additional observations from a re-analysis of the deposited data

Results flagged for a closer look

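The effect of deprivation differed between 1 h and 3 h by the test of the difference itself for 3 of the 5 genes. The effect at 3 h exceeded that at 1 h by 4.83 on the log2 scale for Cxcl2, 4.26 for Cxcl1 and 1.66 for Csf2. Cxcl2 and Cxcl1 were called lower than normoxia at 1 h and higher at 3 h. Csf2 was called higher at 3 h and missed the threshold at 1 h (-0.74, limma adjusted p = 0.227). Over the alternatives the values ran from 4.74 to 5.58, from 4.15 to 4.44 and from 1.63 to 3.48, and all stayed past the threshold. Beside them, the lone normoxia library at 1 h held 780 reads of Cxcl1 against 126 and 133 in those of 3 h and 6 h. Each difference is the rise from 1 h to 3 h among deprived libraries less the change between the normoxia libraries of those times. The rise among deprived libraries alone, with no normoxia library, was 1.93, 1.61 and 0.96 for Cxcl2, Cxcl1 and Csf2. The normoxia change, 1 library against 1, was -2.9, -2.65 and -0.7, the larger part for Cxcl2 and Cxcl1. What lies behind the normoxia change was not tested.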

How the results depend on the processing

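Of 283 values of the 5 genes under the alternatives, 6 h against normoxia left aside, 276 kept direction and call, 4 lost the call, 1 gained it and 2 changed sign without a call. These were Ccl2 from 3 h to 6 h of deprivation, near 0 in both fits (0.03 with voom), and Cxcl2 with obacunone (0.01 without 3 h). Many alternatives could not change direction. The floors, the trend and robust options and the additive model leave each log2 value as it was. So does leaving out a time, outside the obacunone effect, and it leaves fewer residual degrees of freedom. In those fits only the call could change, so the count of values kept overstates how far direction was tested. From 3 h to 6 h of deprivation, 2 of the 5 genes were called with a floor of 5 FPKM, which leaves 3 to test. For obacunone, 1 was called without the 3 h libraries, Ccl2; the cause was not tested. At 1.5-fold instead of 2-fold, 46 and 312 genes were apart between OGD and normoxia at 1 h and 3 h, against 22 and 135. At 1 h the test called 24 genes, 10 with median-ratio scaling and 42 without 3 h. For obacunone it called 1 gene, and 12, 6 and 13 without 1 h, 3 h and 6 h, 6 in the additive model and 0 with median-ratio scaling, without trend, with the robust option and with voom. No paired analysis was possible because each group holds 1 library and the labels give no replicate numbers; the obacunone term compares groups of the same time, matched by time only. Counting error limits Csf2 most, with 2 to 13 reads at 1 h.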

Other observations

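The authors' log2 ratios, which chose the listed genes, were read ratios with no correction for depth: the FPKM ratios differed from them by a median of -0.14 for OGD+Oba against OGD at 1 h and by -0.06 to 0.03 in the other 5 pairs. For Ccl2 the authors' deposited table gives 1.060 at 6 h, near the limit of 1, and the other 4 genes 1.309 to 3.263. In OGD against normoxia at 6 h Ccl2 rested on 173 and 83 reads.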
